A study of Mus musculus with 2 samples.

Results

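The miR-181 family was examined in small RNA libraries of E9.5 mouse hearts. Its members were all precursors whose mature name, without copy number and arm, is miR-181a, miR-181b, miR-181c or miR-181d. The rule found 7 entries in each replicate, out of 620 entries listed in either replicate. An entry is 1 hairpin precursor with its own read counts. Of these 7 entries, 6 are annotated precursors and 1 is a further miR-181b hairpin that overlaps the precursor of miR-181b-1. The hearts came from wild type (WT) embryos of strain C57BL/6 at embryonic day 9.5, and 2 libraries form the only group, so no conditions were compared. The labels do not say whether the libraries came from separate embryos or pools of hearts, so the spread between them may be technical.

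MiRNAs are short RNAs cut from hairpin precursors, and either the 5′ arm (5p) or the 3′ arm (3p) of the hairpin can be kept. Bases 2 to 8 of the kept strand, the seed, pair with sites in target mRNAs, so miRNAs with the same seed are grouped as a family. The miR-181 family is best known from lymphocytes, where miR-181a sets the sensitivity of developing T cells to antigen. It has also been studied in the endothelium, and miR-181c in the mitochondria of heart muscle cells. Vertebrate genomes carry the family as pairs of precursors, an a or c type followed by a b or d type.

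The 5p sequences are shown because they carry the seed that defines the family. They are given 5′ to 3′ as listed with the deposited counts, with the seed in capitals.

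miR-181a-5p: aACAUUCAacgcugucggugag
miR-181b-5p: aACAUUCAuugcugucgguggg
miR-181c-5p: aACAUUCAaccugucggugaguu
miR-181d-5p: aACAUUCAuuguugucgguggg

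All 4 had the same seed. MiR-181b-5p and miR-181d-5p differed by a single substitution, C12U, with miR-181b-5p first and positions counted from 1 at the 5′ end. MiR-181a-5p and miR-181b-5p differed at 3 of 22 bases (A9U, C10U and A21G), all outside the seed. The 3p sequences are shown because they tell apart precursors whose 5p sequences are identical.

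miR-181a-1-3p: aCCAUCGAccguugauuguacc
miR-181a-2-3p: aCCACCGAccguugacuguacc
miR-181c-3p: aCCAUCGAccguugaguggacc
miR-181b-1-3p: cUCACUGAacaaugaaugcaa
miR-181b-2-3p: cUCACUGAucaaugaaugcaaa
miR-181d-3p: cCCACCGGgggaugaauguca

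MiR-181a-1-3p and miR-181a-2-3p differed at 2 of 22 bases, U5C and U16C, the former inside the seed. MiR-181a-1-3p and miR-181c-3p differed at U16G and U19G and had the same seed. MiR-181b-1-3p and miR-181b-2-3p also had a common seed and differed at A9U. Outside the family, 0 entries carried any of these seeds on their mature or star arm.

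The listed sequences were compared with the mature miRNAs of RefSeq (from assembly GRCm38.p6), in which all 10 were found. All 6 of the 3p sequences were identical to RefSeq. Of the 5p sequences, miR-181a-5p and miR-181d-5p ended 1 base before the RefSeq form, miR-181b-5p ended 2 bases before it, and miR-181c-5p ran 1 base beyond it. Among 294 names of the whole series that could be compared, 49.0% ended at the same base as RefSeq, 38.1% were shorter and 7.82% were shorter by 2 bases or more. Whether the listed ends of strands with few reads were read or predicted from the hairpin is not given in the sources used here.

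The 6 annotated precursors lie in 3 loci of mm9, and each locus held 1 precursor of the a or c type followed by 1 of the b or d type. On the plus strand of chromosome 1, miR-181a-1 (chr1:139863045-139863106) is followed after 120 bases by miR-181b-1 (chr1:139863227-139863287). No gene other than the miRNAs is annotated there in GENCODE vM1, and the nearest protein-coding gene upstream, A130050O07Rik, ends 36195 bases away. On the plus strand of chromosome 2, miR-181a-2 (chr2:38708261-38708326) and miR-181b-2 (chr2:38709365-38709424) are 1038 bases apart. Both lie in an intron of Nr6a1, a nuclear receptor gene on the opposite strand, and miR-181a-2 starts 371 bases after the end of the noncoding transcript Gm13507 on its own strand. On the minus strand of chromosome 8, miR-181c (chr8:86702784-86702844) is followed after 103 bases by miR-181d (chr8:86702619-86702680), and Nanos3, a gene of germ cell development on the same strand, starts 2168 bases beyond miR-181d. The pairs on chromosomes 1 and 8 thus spanned 243 and 226 bases, against 1164 bases on chromosome 2.

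**Figure D1:**
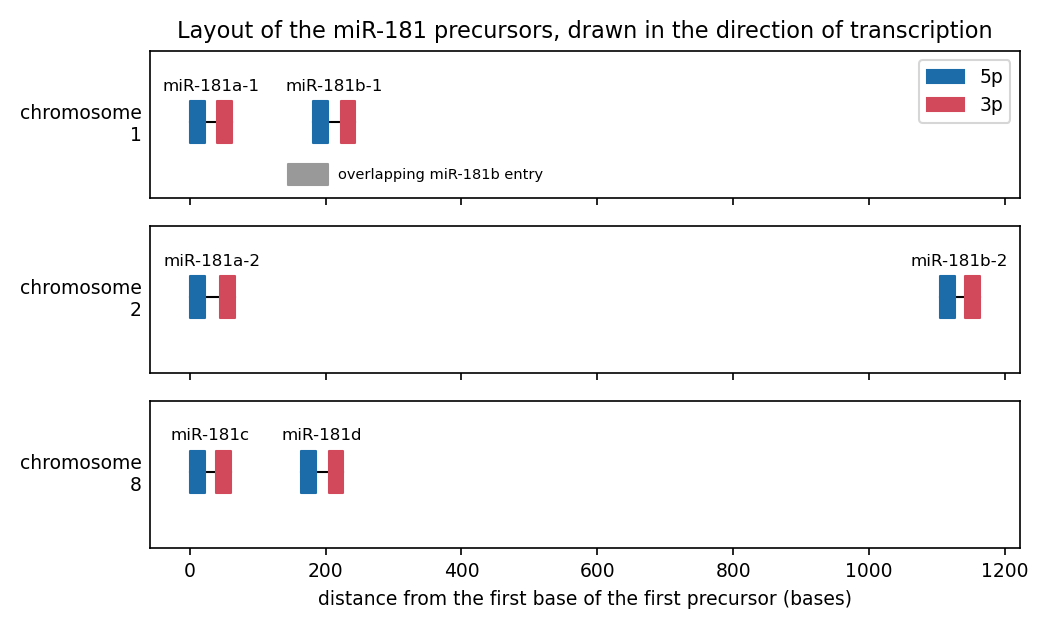
Layout of the 6 annotated miR-181 precursors in 3 loci, with distance in bases from the first base of the first precursor on the x axis and blue and red boxes for the 5p and 3p sequences. The precursors of chromosome 2 are 1038 bases apart, those of chromosomes 1 and 8 120 and 103 bases, and the grey bar is the miR-181b entry that overlaps miR-181b-1.

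The seventh entry, also named miR-181b-5p, lies at chr1:139863190-139863248 and overlaps the miR-181b-1 precursor by 22 bases, which are the mature sequence itself. Its mature reads, 2684 in replicate 1 and 2695 in replicate 2, were equal to those of miR-181b-1, and it had 0 star reads, the star being the arm opposite the mature strand. Its miRDeep2 score, a log-odds score of the hairpin, was -8.5 in both replicates, and it was the only one of the 7 entries without a significant randfold p-value, which asks whether the hairpin folds more stably than shuffled sequence. The scores of the 5 annotated precursors with mature reads on the 5p arm lay between 0.9 and 2, and that of miR-181c was 150 in replicate 1 and 140 in replicate 2. In a fold computed here, the overlapping hairpin had a free energy of -7.0 kcal/mol with 40.7% of its bases paired. The 6 annotated precursors ranged from -21.0 kcal/mol (miR-181a-1) to -27.1 kcal/mol (miR-181d), with 60.6% to 76.7% paired. This entry therefore listed the miR-181b-5p reads once more, on a hairpin of weaker predicted fold.

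Replicate 1 had 4942257 mature reads over 568 entries and replicate 2 had 4806179 over 523. A floor of 3 reads equals 6.07e-05% and 6.24e-05% of them. Heart muscle miRNAs (miR-1a, miR-133a, miR-208a, miR-208b and miR-499, all listed) held 23.1% ± 0.64 of the mature reads (SD, n = 2). Of the marker lists for other cell types, the endothelial one held 2.89% ± 0.017, that of blood 0.378% ± 0.057, the neural one 0.280% ± 0.033 and the liver miRNA miR-122 0.0488% ± 0.0094 (SD, n = 2). Most of the blood share came from miR-486a and miR-486b (0.362% together), and miR-223 of that list was not found. Most of the neural share came from miR-128, with 0.133% at miR-128-1-3p and 0.130% at miR-128-2-3p. Most of the endothelial share came from miR-126a-3p (2.88%). Whether the reads of these miRNAs came from the named cell types was not tested. All shares given so far count reads of one sequence again at each of its copies. With each mature sequence counted once, a count added after the values were known, the heart muscle list held 15.9% ± 0.48, the endothelial one 3.95% ± 0.0068, that of blood 0.190% ± 0.028, the neural one 0.188% ± 0.025 and miR-122 0.0668% ± 0.013 (SD, n = 2). The part of these cell types in the values of the miR-181 family was not tested.

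Over all 7 entries, the mature reads of the family came to 15609 in replicate 1 and 15406 in replicate 2, or 0.3182% ± 0.0033 of all mature reads (SD, n = 2). These sums count reads of identical sequences at more than 1 precursor. The mature reads of miR-181a-1 and miR-181a-2 were equal in each replicate (1361 and 1269), and those of miR-181b-1 and miR-181b-2 differed by few reads (2684 against 2682 and 2695 against 2682). The 5p counts of these copies can therefore not be assigned to a locus. With each mature sequence counted once, 8882 and 8760 reads remained, 0.2478% ± 0.0034 of a total counted the same way. Without the overlapping hairpin alone, an alternative added once the entries had been seen, the share was 0.2631% ± 0.0021 (SD, n = 2 for both).

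MiR-181d-5p had the most reads of all sequences of the family. Its 4584 reads in replicate 1 were 0.0928% of the mature reads (95% Wilson confidence interval 0.0901% to 0.0955%), and its 4556 reads in replicate 2 were 0.0948% (0.0921% to 0.0976%). Of a total with each mature sequence counted once, these reads were 0.128% ± 0.0024 (SD, n = 2). MiR-181b-5p followed with 2684 and 2695 reads, and miR-181a-5p with 1361 and 1269. The order was the same in both replicates, and the gaps were larger than the spread between them. MiR-181d-5p exceeded miR-181b-5p 1.71-fold in replicate 1 and 1.69-fold in replicate 2, and miR-181b-5p exceeded miR-181a-5p 1.97-fold and 2.12-fold. As 1 base separates miR-181b-5p from miR-181d-5p and the mismatches allowed in mapping are not given in the sources used here, an exchange of reads between them was not tested. Whether the read counts of different sequences follow their abundance in the hearts was likewise not tested.

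By contrast, miR-181c-5p, the seed-bearing strand of the precursor next to miR-181d, held 45 reads in replicate 1 and 39 in replicate 2. Of the reads of all 4 5p sequences, miR-181d-5p made up 53.0% ± 0.27, miR-181b-5p 31.2% ± 0.38, miR-181a-5p 15.3% ± 0.61 and miR-181c-5p 0.487% ± 0.045 (SD, n = 2 for each). Within the locus on chromosome 8, reads of miR-181d-5p outnumbered those of miR-181c-5p 102-fold in replicate 1 and 117-fold in replicate 2.

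Next in the order came 3p sequences. MiR-181a-1-3p had 627 and 612 reads, miR-181c-3p 253 and 240, and miR-181a-2-3p 180 and 228. The gap between miR-181c-3p and miR-181a-2-3p was 0.000863% of all mature reads, hardly above the SD of miR-181a-2-3p of 0.000779%. The remaining 3p sequences, all of the b or d type, had at most 14 reads: 13 and 10 for miR-181b-1-3p, 7 and 14 for miR-181d-3p, and 6 and 1 for miR-181b-2-3p. The order of miR-181b-1-3p and miR-181d-3p turned between the replicates, and the single read of miR-181b-2-3p in replicate 2 was under the floor. With every sequence counted once, 5p strands held 88.7% ± 0.22 of the family's 9760 and 9664 mature and star reads (SD, n = 2).

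**Figure D2:**
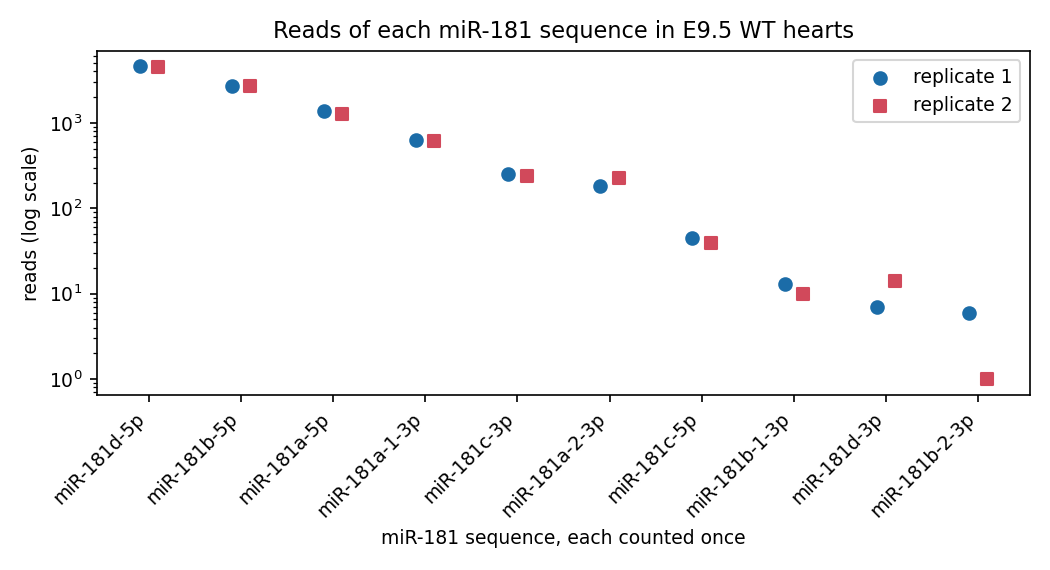
Reads of the 10 miR-181 sequences (log scale on the y axis), each counted once, in replicate 1 (circles) and replicate 2 (squares). The points fall from 4584 and 4556 reads for miR-181d-5p to 6 and 1 for miR-181b-2-3p, and the replicates lie close together down to miR-181c-5p.

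The share of 3p reads differed widely among the precursors. On chromosome 1, 3p reads made up 31.5% of the 3p and 5p reads of miR-181a-1 in replicate 1, with a 95% Wilson interval from 29.5% to 33.6%, and 32.5% in replicate 2 (30.5% to 34.7%). For miR-181b-1, 120 bases further on, the 3p share was 0.482% and 0.370%. On chromosome 2 it was 11.7% and 15.2% for miR-181a-2, and 0.223% and 0.0373% for miR-181b-2. On chromosome 8 the 3p strand was the main one of miR-181c, with 84.9% (80.4% to 88.5%) and 86.0% (81.5% to 89.6%), whereas miR-181d had 0.152% and 0.306%. In both replicates the interval of miR-181c did not overlap that of miR-181d. The 5p reads of miR-181a, and likewise those of miR-181b, are listed at each of their copies, so the 3p shares on chromosomes 1 and 2 are lower bounds for each copy and neighbours were not compared there.

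The name miR-181c-5p in the deposited tables stands for the annotated mature strand, but the table marks the reads as lying on the other arm. The 3p strand of miR-181c outnumbered the 5p strand 5.62-fold in replicate 1 and 6.15-fold in replicate 2. With the 5p reads counted once, the 3p strands of both copies together made up 37.2% of miR-181a reads in replicate 1 (35.2% to 39.3%) and 39.8% in replicate 2 (37.8% to 41.9%). The same count for miR-181b gave 0.703% (0.450% to 1.10%) and 0.407% (0.227% to 0.726%), below the intervals of miR-181a in both replicates. Over the 377 entries tested below for their arms, the median share of star reads was 0.949%. MiR-181a-1, at a star share of 32.0% ± 0.70, lay above 94.2% of these entries, miR-181c, at 14.5% ± 0.79, above 82.2%, and miR-181a-2, at 13.5% ± 2.5, above 79.8% (SD, n = 2 for each). The star shares of miR-181a-1 and miR-181a-2 are lower bounds, as their 5p reads are listed at both copies.

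**Figure D3:**
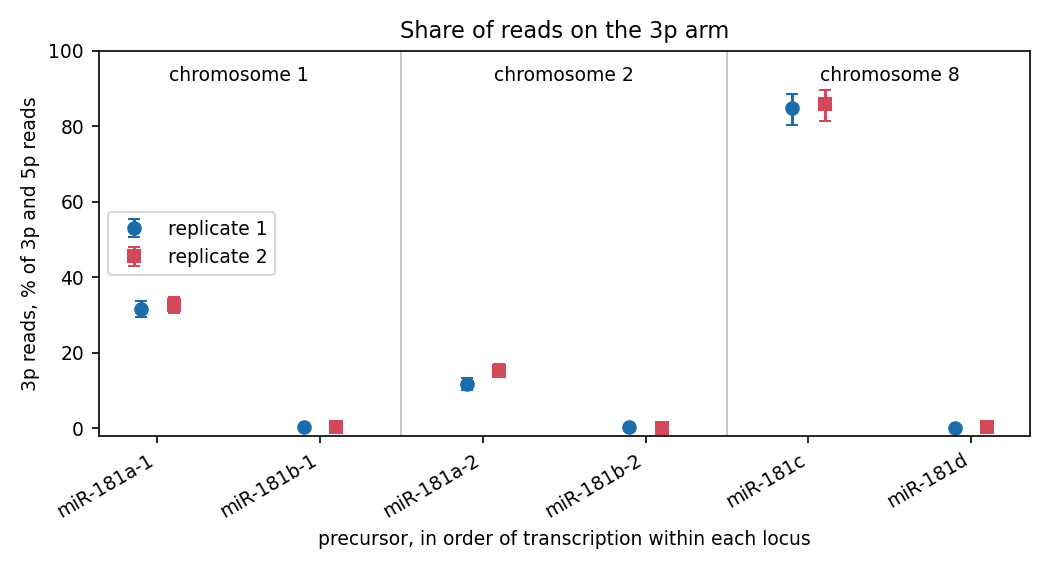
Share of 3p reads among the 3p and 5p reads of each annotated precursor (y axis, percent), by locus and in order of transcription, with 95% Wilson intervals that cover counting error only. MiR-181c lies at 84.9% and 86.0%, miR-181a-1 at 31.5% and 32.5%, miR-181a-2 at 11.7% and 15.2%, and the 3 precursors of the b or d type below 0.5%. On chromosomes 1 and 2 the shares are lower bounds for each copy.

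The 3p reads also separate the copies of miR-181a. MiR-181a-1-3p exceeded miR-181a-2-3p 3.48-fold in replicate 1 and 2.68-fold in replicate 2. Of the 3p reads of miR-181a, 77.7% (95% Wilson confidence interval 74.7% to 80.4%) and 72.9% (69.8% to 75.8%) were listed on chromosome 1. As 2 bases separate these 3p sequences and the mismatches allowed in mapping are not given, an exchange of reads between them was not tested. The precursor on chromosome 1 held more of the listed 3p reads in both replicates. Whether its precursor is more abundant or keeps its 3p strand more often cannot be told apart from these counts.

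The replicates were compared by a two-sided exact binomial test for each entry with Benjamini-Hochberg adjustment over all 431 entries with 20 or more mature reads when both are added. Of all entries tested, 41.1% differed between the replicates at an adjusted p of 0.05, and among the 187 that had 1000 or more in each it was 68.4%. Of the 7 miR-181 entries, 0 differed, and 0 had an unadjusted p under 0.05. Their adjusted p-values ran from 0.37 to 0.87 (exact binomial test). Since identical sequences are listed repeatedly, the 7 entries stand for 4 distinct sequences. Their log2 ratios of replicate 2 over replicate 1 lay between -0.061 (miR-181a-1 and miR-181a-2) and 0.046 (miR-181b-1). The median absolute log2 ratio was 0.046 in the family and 0.19 over all entries tested. Over the 187 entries with 1000 or more mature reads in each replicate, which include all of the family but miR-181c, it was 0.12. The ratios of the family were positive for 4 entries and negative for 3. With library sizes scaled by edgeR's TMM or by DESeq2's size factors 0 were positive, so no direction is given, and 0 of 7 differed under either scaling. The log2 ratios of the family then ran from -0.119 to -0.012 under TMM and from -0.129 to -0.022 under DESeq2's size factors. The test covers counting error only, while edgeR's common dispersion gave a coefficient of variation between the replicates of 15.3%.

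**Figure D4:**
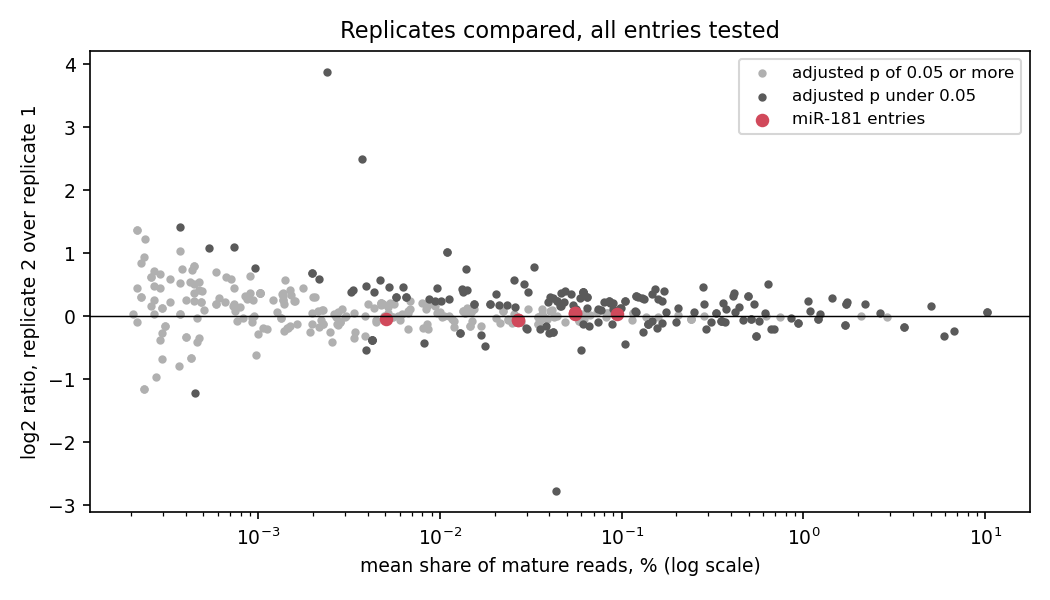
Log2 ratio of replicate 2 over replicate 1 (y axis) against mean share of mature reads (x axis, percent, log scale) for the 431 entries tested. The 7 miR-181 entries (red; identical sequences coincide) lie between -0.061 and 0.046, and dark grey points are entries with an adjusted p under 0.05.

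The share of star reads was compared between the replicates by a two-sided Fisher's exact test for each of 377 entries that kept their mature arm and had 20 or more mature and star reads per replicate. After adjustment over all of them, 8.75% of entries differed. Of the 7 miR-181 entries 0 differed, and 1 had an unadjusted p under 0.05. This was miR-181a-2, with 180 star reads to 1361 mature reads in replicate 1 and 228 to 1269 in replicate 2 (adjusted p = 0.053, Fisher's exact test).

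Mature reads were then summed by seed, over entries listed in both replicates. The seed of miR-181a-5p, miR-181b-5p and miR-181d-5p ranked 39 of 330 seeds, with 0.311% of mature reads in replicate 1 and 0.316% in replicate 2. This sum covers 6 entries and counts reads of identical sequences at each of them. With each mature sequence counted once, the seed ranked 41 with a mean share of 0.241%. The shares of seeds that follow are not counted once. Its neighbours above were the seeds of miR-409-3p (0.362% ± 0.036), miR-486a-5p with miR-486b-5p (0.362% ± 0.055), and miR-134-5p (0.374% ± 0.020). Those below were miR-322-3p (0.309% ± 0.013), miR-423-3p (0.285% ± 0.026) and miR-296-3p (0.281% ± 0.064; SD, n = 2 for each). The seeds of miR-322-3p and miR-296-3p each exchanged places with that of miR-181 between the replicates, and the gap to the miR-486 seed was smaller than the SD of the latter, so these orders were within the spread. As a single entry, miR-181d-5p ranked 96 of 471, between miR-28a-3p (94) and miR-652-3p (95) on one side and miR-674-3p (97) and miR-503-3p (98) on the other. Its share of 0.0938% ± 0.0014 differed from that of miR-652-3p, 0.0980% ± 0.0062, and of miR-674-3p, 0.0897% ± 0.0048, by less than the larger SD (n = 2 for each). The entries of miR-181b ranked 131 to 133, both of miR-181a tied at rank 176, and miR-181c ranked 261.

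**Figure D5:**
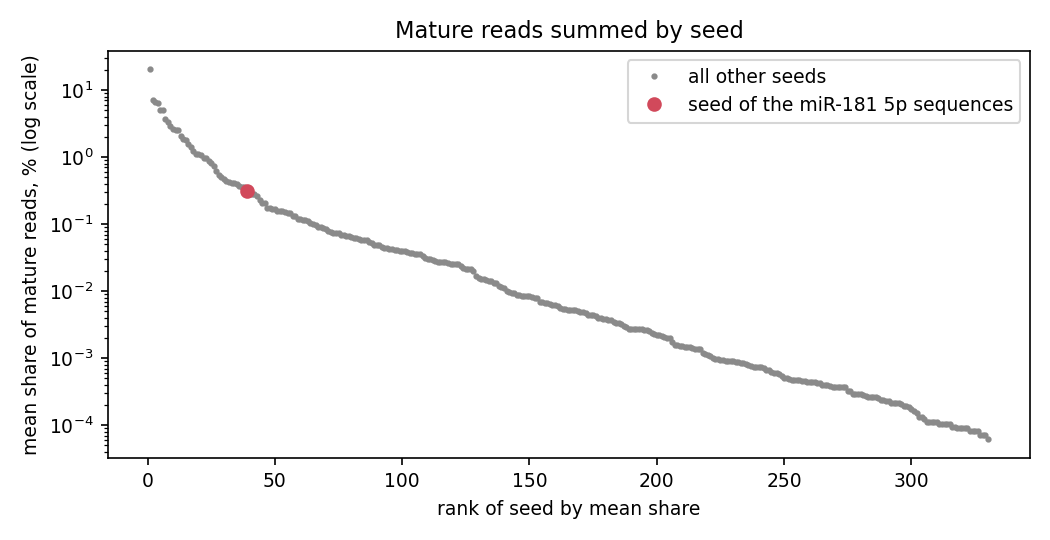
Mean share of mature reads (y axis, percent, log scale) of 330 seeds in order of rank, with the seed common to the miR-181 5p sequences in red at rank 39. Grey points are the other seeds, and reads of identical sequences are counted at each entry.

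Sites with the letters TGAATGT, which pair with bases 2 to 8 of the 5p sequences, were sought on the transcribed strand of the longest annotated 3′ UTR of 7 genes often named with this family. Of the 7, 3 held such a match, and 14.4% of all 20007 genes with an annotated 3′ UTR did, at a median length of 891 bases against 457 to 6940 in the list. Each of Prox1, a transcription factor of lymphatic endothelium and heart muscle, Bcl2, which inhibits apoptosis, and Dusp5, a phosphatase of ERK, had 1 match, whereas Dusp6, Kpna4, Ptpn11 and Ptpn22 had 0. The site in Prox1 starts at base 18 of a 3′ UTR of 1439 bases. The matches are shown to set the seed beside its sites, as 22 bases of the mm9 mRNA strand with the match in capitals.

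Prox1, chr1:191947074-191947095, minus strand: ttgcaacgctctttTGAATGTa
Bcl2, chr1:108436407-108436428, minus strand: ataataatcaggacTGAATGTa
Dusp5, chr19:53616800-53616821, plus strand: cccgtaaacccatgTGAATGTg

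In Prox1 and Bcl2 the match is followed by an A opposite base 1 of the miRNA, and in Dusp5 by a G. These matches describe the letters of the UTRs. Levels of these mRNAs are not part of the libraries analysed here.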

How the data were processed

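Total RNA of E9.5 WT hearts was made into libraries with the TruSeq Small RNA kit and sequenced on HiSeq2500 as single-end reads, in 2 replicates. With miRDeep2, the authors placed the cleaned reads of each replicate on mm9. The deposited values are raw counts of all, mature, loop and star reads for each precursor, not normalized, and a miRDeep2 score, rounded in the deposited tables. Versions, trimming, mismatches and the sharing of reads between copies are not given in the sources used here. Start and end were brought to positions counted from 1, after which all 620 precursors were identical to NCBIM37, the assembly of mm9.

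Entries were matched between the replicates by position and strand where 50% or more of each precursor overlapped (471 paired, 97 only in replicate 1 and 52 only in replicate 2). Shares are percent of all mature reads of a replicate. Wilson intervals (95%) and floors cover counting error only. A locus is a run of precursors with gaps of at most 10 kb. Names follow the arm with the reads. Of the 10 sequences, those found at several copies were counted once by the copy with most reads. Neighbours in the order of levels were said to differ when the gap between means was larger than the larger SD and the order was the same in both replicates. The text names all miR-181 entries, the 2 entries ranked on each side of the highest of them, the 3 seeds on each side, the marker lists and the listed genes. One further gene of that list is not reported here and enters no count. Members, lists and tests were chosen with earlier results of these data known. Computing the folds (RNAfold 2.7.2) was chosen after the entries had been seen. The binomial and Fisher tests were tested on simulated data before use. The simulated counts held counting error only, without the further variation between the replicates of these data. Tools were Python 3.11.15, scipy 1.17.1, pandas 2.3.3, matplotlib 3.10.9, R 4.3.3, edgeR 4.0.16 and DESeq2 1.42.0. Alternatives changed the way of counting, the scaling, read minimums, seed length and locus gap, and left out each replicate.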

Additional observations from a re-analysis of the deposited data

How the results depend on the processing

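No paired analysis was possible because there is only 1 group of samples. The share of the family, 0.318% over all 7 entries, fell to 0.248% with each mature sequence counted once and was 0.328% when all reads of the precursors were counted. Leaving out the overlapping miR-181b hairpin, which was added after seeing the data, gave 0.263%. Both lower values drop reads listed at more than 1 precursor, and the higher one adds star and loop reads. Leaving out 1 replicate gave 0.316% to 0.321%. Of 7 listed genes, 3 held a match to bases 2 to 8 and 5 a match to bases 2 to 7, which 29.9% of all genes with a 3′ UTR held. The rank of the seed was 41 with each sequence counted once and 40 with either replicate alone. Under the alternative scalings and read minimums, 0 of the 7 miR-181 entries differed between the replicates, with lowest adjusted p-values of 0.078 under TMM and 0.054 under DESeq2's size factors (exact binomial test). Over all entries, 119 of the 177 that differed were higher in replicate 2, against 86 of 178 under TMM and 78 of 176 under DESeq2's size factors. Widening the gap to 50 kb left 3 loci and added entries named miR-3074 to that of chromosome 8. With 2 replicates and fewer than 20 reads, the levels of the 3p strands of miR-181b and miR-181d are not resolved.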
